A study of Mus musculus with 16 samples.

Results

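Mitosis and DNA replication genes were followed in dorsal skin, biopsied whole, of female mice of the inbred strain C57/B6 (written C57/B7 in the sample titles) before and after topical treatment with Janus kinase inhibitors. The module comprised 45 genes chosen for their roles, 17 in DNA replication and 28 in mitosis. Each gene was read through probe sets annotated to it alone, and the probe set with the highest mean over the 16 arrays stood for it if it exceeded log2 4 in at least 2 arrays. Of the 45 members, 43 were tested, 16 for replication and 27 for mitosis, among 12087 genes tested in all. The replication gene Tyms had 4 probe sets that did not pass, and the platform table used here listed no probe set for the mitotic gene Ccnb1 alone. The probe set rule used no difference between groups, but the members were chosen with earlier results of these data known.

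The arrays came from 9 mice. Every mouse gave a day-0 biopsy at 8.5 weeks of age, before treatment (n = 9). Mice 2 and 3 gave a second biopsy at day 5 after 4 days of daily application of DMSO (dimethyl sulfoxide), which served as vehicle (n = 2). Mice 4 and 6 received ruxolitinib (n = 2) and mice 7, 8 and 9 received tofacitinib (n = 3) on the same schedule, and mice 1 and 5 had a day-0 array only. Both drugs inhibit Janus kinases, which relay cytokine receptor signals. Drug doses were not used here. Every day-5 array is thus from a mouse that had been biopsied before, and untreated day-5 skin was not compared here. The tofacitinib array of mouse 7 is called ruxolitinib in its description field and tofacitinib in its title, source and treatment fields, and it was grouped by the latter.

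A dividing cell copies its DNA in S phase and separates the copies in mitosis. Before S phase, origins are licensed by Cdc6 and Cdt1, which load the Mcm2 to Mcm7 helicase. Cyclin E (Ccne1, Ccne2) opens S phase, Cdc45 and Gins1 turn the helicase into an active fork, and Pcna clamps the polymerase. In mitosis, Cdk1 with cyclins A and B drives entry, Aurora and Polo-like kinases and kinesin motors build the spindle, and Bub1, Bub1b, Mad2l1 and Ttk hold anaphase until chromosomes are attached. Cdc20 and Ube2c then act in cyclin destruction, and Prc1, Anln and Ect2 in cell separation. In skin, division takes place mainly in basal keratinocytes and in the matrix of growing hair follicles. Replication genes are typically transcribed around the entry into S phase, under E2F factors, and mitotic genes later, often through CHR (cell cycle genes homology region) and CCAAT elements.

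Promoter windows of 6 members are printed because mitotic and replication genes differ in the letters marked. The windows run from 250 bases before to 50 bases after the annotated start, 5′ to 3′ on the gene's strand, from RefSeq on build GRCm38.p6, and the first listed start of each gene was used. Capitals mark 3 kinds of motif on either strand. CHR has the letters TTTGAA. The CCAAT box is searched by its name. The E2F core was searched as TTCCCGC, which reads GCGGGAA on the other strand. Its variant forms were TTGGCGC as a form of its own, then TTCGCGC as a further form, with TTGCCGC as the last form searched. The CCAAT box reads ATTGG on the other strand. Mitotic members come first, namely Bub1b (chr2:118597961-118598260, plus strand), Ccnb2 (chr9:70421505-70421804, minus strand) and Prc1 (chr7:80294201-80294500, plus strand). The replication members are Mcm6 (chr1:128359656-128359955, minus strand), Cdt1 (chr8:122567765-122568064, plus strand) and Cdc6 (chr11:98907901-98908200, plus strand).
Bub1b: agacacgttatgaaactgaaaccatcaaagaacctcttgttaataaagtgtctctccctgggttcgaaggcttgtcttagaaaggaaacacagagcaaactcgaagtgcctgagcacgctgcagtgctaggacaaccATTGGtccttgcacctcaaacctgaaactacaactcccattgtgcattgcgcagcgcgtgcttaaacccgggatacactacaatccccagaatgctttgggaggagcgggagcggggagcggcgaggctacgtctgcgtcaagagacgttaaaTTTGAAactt
Ccnb2: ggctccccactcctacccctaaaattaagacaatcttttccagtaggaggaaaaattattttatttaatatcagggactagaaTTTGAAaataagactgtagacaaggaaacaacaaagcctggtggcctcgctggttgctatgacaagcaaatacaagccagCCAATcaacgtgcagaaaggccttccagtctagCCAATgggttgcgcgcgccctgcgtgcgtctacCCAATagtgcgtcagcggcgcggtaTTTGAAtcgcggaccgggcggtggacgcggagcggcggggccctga
Prc1: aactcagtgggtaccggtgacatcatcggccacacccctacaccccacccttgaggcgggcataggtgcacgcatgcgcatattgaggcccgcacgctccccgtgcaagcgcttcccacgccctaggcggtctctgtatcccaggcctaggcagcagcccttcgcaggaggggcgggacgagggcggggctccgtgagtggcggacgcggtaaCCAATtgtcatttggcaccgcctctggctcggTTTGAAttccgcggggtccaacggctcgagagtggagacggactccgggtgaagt
Mcm6: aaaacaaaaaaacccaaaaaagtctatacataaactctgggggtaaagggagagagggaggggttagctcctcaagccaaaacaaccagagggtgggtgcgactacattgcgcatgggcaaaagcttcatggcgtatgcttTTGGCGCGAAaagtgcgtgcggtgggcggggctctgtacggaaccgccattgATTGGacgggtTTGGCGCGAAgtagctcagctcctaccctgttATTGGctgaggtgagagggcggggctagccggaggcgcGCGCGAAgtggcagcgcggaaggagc
Cdt1: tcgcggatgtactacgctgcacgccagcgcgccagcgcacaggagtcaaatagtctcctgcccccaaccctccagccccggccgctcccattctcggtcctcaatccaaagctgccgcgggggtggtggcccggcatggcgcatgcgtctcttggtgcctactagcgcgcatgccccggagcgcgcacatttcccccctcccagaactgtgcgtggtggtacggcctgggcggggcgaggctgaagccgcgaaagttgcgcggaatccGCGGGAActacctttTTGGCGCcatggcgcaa
Cdc6: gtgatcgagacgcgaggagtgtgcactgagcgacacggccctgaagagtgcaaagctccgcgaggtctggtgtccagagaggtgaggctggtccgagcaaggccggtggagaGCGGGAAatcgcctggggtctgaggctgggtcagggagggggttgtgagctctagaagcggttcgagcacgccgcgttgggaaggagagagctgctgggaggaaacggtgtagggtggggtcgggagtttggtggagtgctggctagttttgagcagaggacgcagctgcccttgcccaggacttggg

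Each mitotic window shown holds CHR and CCAAT, and each replication window shown holds an E2F core. The windows shown are examples and do not stand for every member. Those of Nusap1 and Ccne1 held none of the motifs searched, and that of Anln held CHR without CCAAT. With the start at position 1, CHR lay at 41 to 46 in Bub1b, at -167 to -162 and 5 to 10 in Ccnb2, and at -5 to 1 in Prc1. In Mcm6, TTGGCGC overlaps TTCGCGC read from the other strand. Among 35 tested members in the table, CHR was found in 16 of 22 mitotic windows (72.7%) and 2 of 13 replication windows (15.4%), against 18.1% of all 27025 genes in the table. The E2F core was found in 3 of 22 mitotic windows (13.6%) and 9 of 13 replication windows (69.2%), against 9.69% of all. CCAAT was common in both classes, with 17 of 22 (77.3%) and 9 of 13 (69.2%), against 37.9% of all. Such matches describe letters in a window and are not evidence of a bound factor. Tpx2, Foxm1, Mcm4, Aurkb, Ccne2, Ccna2, Kif20a and Gins1 were not matched in the table.

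Array medians lay between 3.75 and 3.94, while control probe sets that match no mouse transcript had values up to 2.43 (median 1.70). Probe sets at the 3′ and 5′ ends of Actb, a check of RNA integrity, differed by 1.65 to 2.09 log2 units at day 0 and by 1.64 to 1.95 at day 5. Those of Gapdh differed by 0.82 to 1.47 at day 0 and by 0.78 to 0.98 at day 5, so the day-0 range reached higher. Among members, Foxm1 and Plk1 each had 1 vehicle and 1 tofacitinib array at or under 2.43, so the sizes of their differences are uncertain. Plk1 exceeded log2 4 in 5 day-0 arrays and in no day-5 array, so it was tested through the group in which it is high. Basal keratinocyte genes (Krt5, Krt14, Krt15, Trp63, Itga6, Itgb4, Col17a1, Dst, Lamb3 and Lama3) were present in every array, with a mean level of 11.62 to 12.06 at day 0 and 10.54 to 10.94 at day 5.

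The mitotic mean was below the day-0 range in both vehicle arrays, in 1 of 2 ruxolitinib arrays and in 2 of 3 tofacitinib arrays, and it was lower than the replication mean in each day-5 array. The mean over the 27 mitotic genes, relative to the day-0 mean, lay between -0.39 and 0.57 in the 9 day-0 arrays. It was -2.32 and -2.25 in the vehicle arrays of mice 2 and 3, -0.10 and -1.18 in the ruxolitinib arrays of mice 4 and 6, and -0.27, -1.12 and -2.08 in the tofacitinib arrays of mice 7, 8 and 9. Ruxolitinib mouse 4 and tofacitinib mouse 7 thus lay within the day-0 range, the other inhibitor arrays lay below it, and tofacitinib mouse 9 lay close to vehicle.

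The mean over the 16 replication genes lay between -0.27 and 0.35 at day 0. It was -0.36 and -0.41 with vehicle, 0.39 and -0.11 with ruxolitinib, and 0.38, -0.06 and -0.43 with tofacitinib. Both vehicle arrays and tofacitinib mouse 9 were below the day-0 range, ruxolitinib mouse 4 and tofacitinib mouse 7 were slightly above it, and the arrays of mice 6 and 8 were inside it. The mitotic mean was lower than the replication mean in each of the 7 day-5 arrays, by 1.96 and 1.84 log2 units with vehicle, 0.50 and 1.08 with ruxolitinib, and 0.65, 1.06 and 1.65 with tofacitinib. At day 0 the mitotic minus replication difference ran from -0.46 (mouse 2) to 0.66 (mouse 1). A lower mitotic mean thus also occurred before treatment, and ruxolitinib mouse 4 lay just beyond the lower end of that range. Means over members chosen as a group are descriptions and were not tested. In whole skin, fewer dividing cells and less RNA per cell cannot be told apart.

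**Figure D1:**
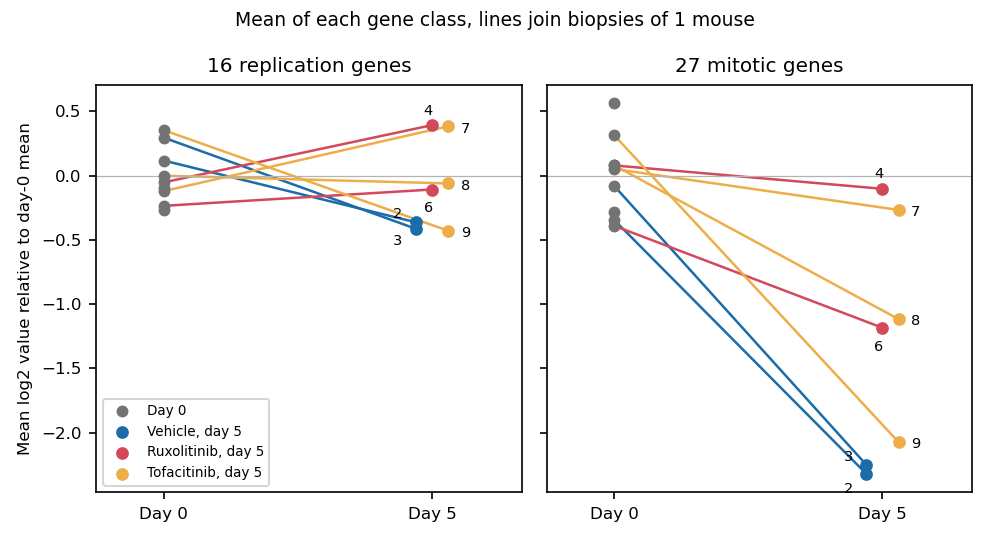
Mean log2 value of the 16 replication genes (left) and the 27 mitotic genes (right) relative to the mean of the 9 day-0 arrays, with 1 point per array, lines joining biopsies of the same mouse, and numbers naming mice at day 5. Mitotic means spread from -0.10 to -2.32 at day 5, and replication means from 0.39 to -0.43.

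Counting genes array by array gave the same picture. Of the 27 mitotic genes, all 27 lay below every day-0 array in both vehicle arrays, where 36.1% and 35.6% of all tested genes did. With ruxolitinib, 5 did so in mouse 4 and 23 in mouse 6, against 29% and 33.7% of all genes. With tofacitinib, 7, 23 and 27 did so in mice 7, 8 and 9, against 24.3%, 34.2% and 36.6%. Of the 16 replication genes, 10 and 9 lay below every day-0 array with vehicle, 3 and 6 with ruxolitinib, and 1, 7 and 9 with tofacitinib. In mouse 4, 6 replication genes lay above every day-0 array, as did 7 in mouse 7, against 25.9% and 25.7% of all genes. The other day-5 arrays had 2 and 1 such genes with vehicle (background 30.7% and 28.3%), 2 in ruxolitinib mouse 6 (22.6%), and 4 and 1 in tofacitinib mice 8 and 9 (25.3% and 28.7%).

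Against its own day-0 biopsy, each mouse had a lower median difference for mitotic than for replication genes. Mitotic genes were lower than in the same mouse at day 0 for 27 of 27 genes in vehicle mice 2 and 3, for 18 and 24 in ruxolitinib mice 4 and 6, and for 20, 26 and 27 in tofacitinib mice 7, 8 and 9. Replication genes were lower for 12 of 16 in both vehicle mice, for 5 and 7 with ruxolitinib, and for 4, 9 and 14 with tofacitinib. Of all 12087 genes, 6304 and 6507 were lower in the vehicle mice and 6155 and 7045 in the ruxolitinib mice. In tofacitinib mice 7, 8 and 9, 5629, 6462 and 6473 were lower. In mouse 9 most genes of both classes were lower. The median mitotic difference was -1.73 and -2.21 with vehicle, -0.09 and -0.82 with ruxolitinib, and -0.27, -1.07 and -2.35 with tofacitinib. The median replication difference was -0.43 and -0.76 with vehicle, 0.42 and 0.23 with ruxolitinib, and 0.43, -0.17 and -0.71 with tofacitinib.

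**Figure D2:**
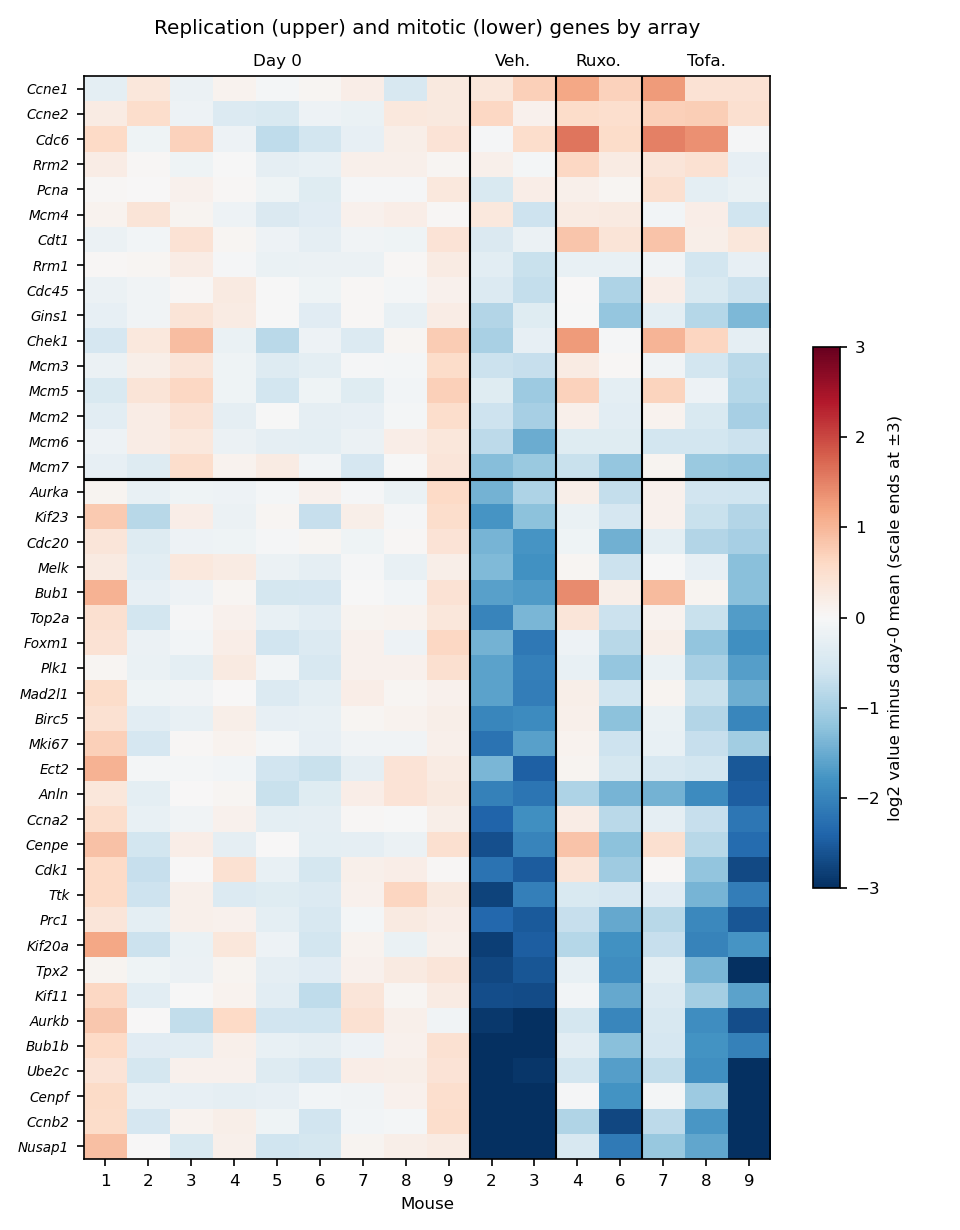
Log2 value minus the day-0 mean for each of the 43 tested genes (rows, replication above the line and mitotic below) in each of the 16 arrays (columns, by group and mouse), in colour from blue (lower) to red (higher), with the scale ending at 3 on either side. Vehicle arrays and tofacitinib mouse 9 are blue through the mitotic block, where ruxolitinib mouse 4 and tofacitinib mouse 7 are pale.

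Tested against day 0 with limma, all 27 mitotic genes passed as lower with vehicle (adjusted p under 0.05), where 28.9% of all tested genes passed as lower and 22.2% as higher. Their differences ran from -3.83 to -1.15, with a median of -2.12 against -0.05 over all genes. With ruxolitinib, 5 mitotic genes passed as lower (Anln, Prc1, Ccnb2, Kif20a and Cdc20; 11 had an unadjusted p under 0.05) and 0 as higher (0 unadjusted), with a background of 21.4% lower and 12.5% higher. At an unadjusted p under 0.05, 3221 of all 12087 genes were lower with ruxolitinib. The mitotic median was -0.54, from -1.80 to 0.81, against -0.03 over all genes. With tofacitinib, 22 passed as lower and 0 as higher (0 unadjusted), with a background of 27.4% and 22.7%. The mitotic median was -1.05, from -2.09 to -0.08, against -0.02 over all genes, and Melk, Aurka, Kif23, Bub1 and Cenpe did not pass. The 3 comparisons share the day-0 arrays. The mitotic counts include Plk1, which exceeded log2 4 at day 0 alone, so its fall is not independent of the filter.

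These counts depended on single inhibitor arrays and on how the pairing was modelled. With the mouse as a fixed replicate block, which compares each mouse with itself, 22 mitotic genes passed as lower with vehicle, 1 with ruxolitinib (Kif20a) and 14 with tofacitinib, where 17.7%, 6.93% and 20.7% of all genes passed as lower. The calls lost with vehicle were Aurka, Bub1, Cdc20, Cenpe and Foxm1 (adjusted p from 0.0512 to 0.0837). Those lost with tofacitinib were Ccna2, Cdc20, Cenpf, Ect2, Foxm1, Mad2l1, Mki67 and Top2a (adjusted p from 0.0537 to 0.0944). Without tofacitinib mouse 9, 7 mitotic genes passed as lower with tofacitinib (19.5% of all genes), and without mouse 7, of which the labels disagree, 26 did (30.6% of all genes). For ruxolitinib, 8 passed without mouse 4 and none without mouse 6 (13.8% and 11.3% of all genes), and 10 and 9 passed without tofacitinib mouse 7 or 9 (23.3% and 22.4%), which enter through the shared spread. Leaving out any other array kept each count within 1.5 times its value.

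**Figure D3:**
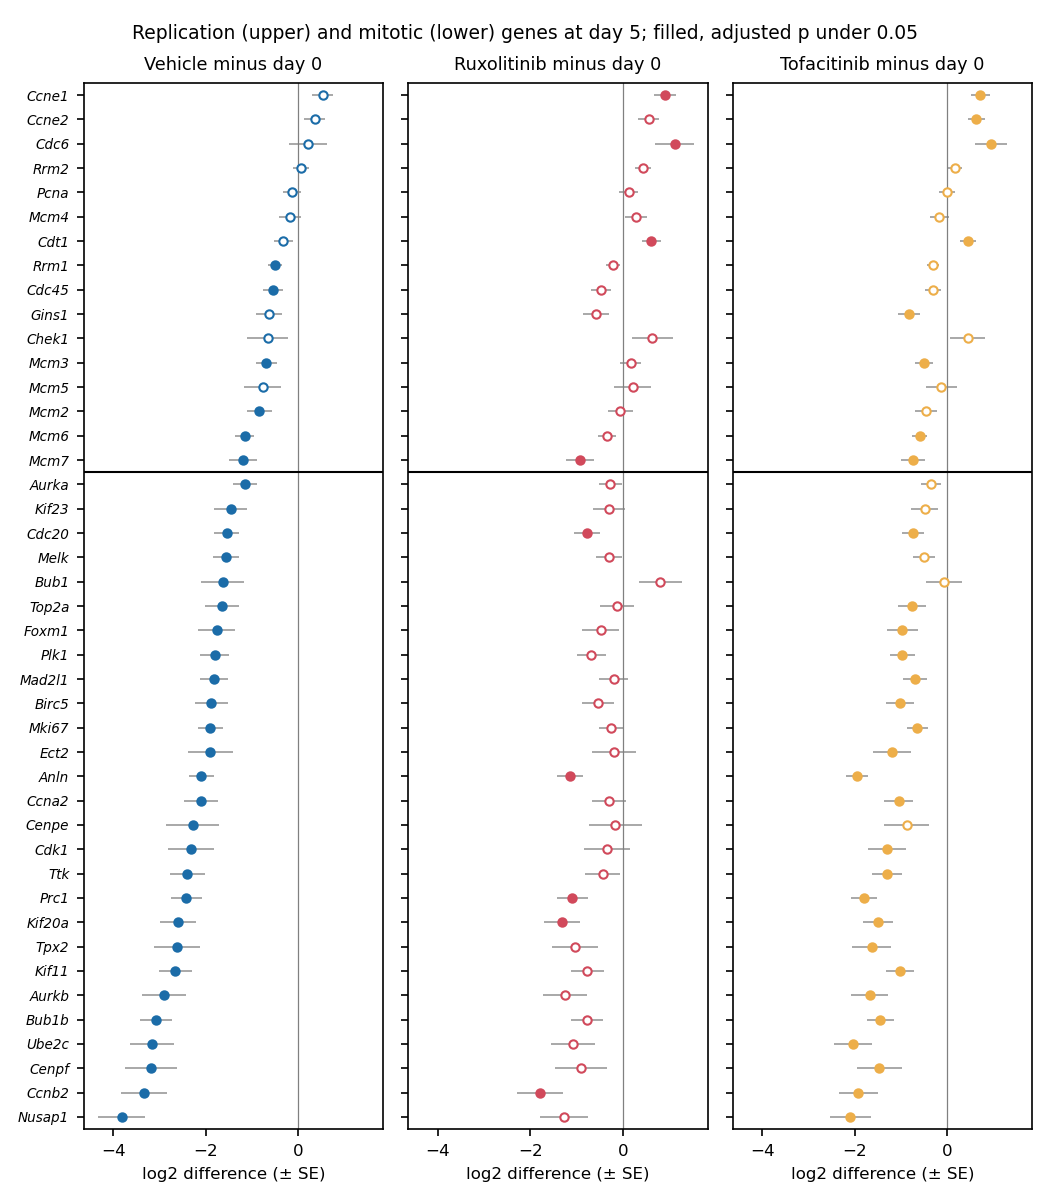
Difference from day 0 (log2, bars ± SE) for each tested gene with vehicle, ruxolitinib and tofacitinib, with replication genes above the line and filled points for adjusted p under 0.05. All 27 mitotic points are filled with vehicle, 5 with ruxolitinib and 22 with tofacitinib, and filled points right of 0 are found among replication genes (3 with ruxolitinib and 4 with tofacitinib).

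Of the spindle checkpoint genes, Bub1b had the smallest p over the day-5 differences. Bub1b (gene ID 12236), which encodes the checkpoint protein BubR1, had lowest, median and highest log2 values of 6.83, 7.01 and 7.77 at day 0. Its day-5 values were 4.16 and 3.97 with vehicle, 6.86 and 5.93 with ruxolitinib and 6.67, 5.39 and 5.14 with tofacitinib. Both vehicle arrays were below every other array, ruxolitinib mouse 4 lay inside the day-0 range, and the other inhibitor arrays lay between. It fell with vehicle (-3.08 ± 0.34, SE, 8.43-fold lower, adjusted p = 1.11e-05) and tofacitinib (-1.45 ± 0.29, adjusted p = 0.0011), and its ruxolitinib difference of -0.77 ± 0.34 did not pass (adjusted p = 0.0943). Day-0 values of the genes that follow are given in the same order. Bub1, its partner kinase, ranged over 6.07, 6.53 and 7.63 at day 0 and had 4.97 and 4.91 with vehicle, 8.01 and 6.77 with ruxolitinib and 7.56, 6.69 and 5.35 with tofacitinib. Ruxolitinib mouse 4 was above the whole day-0 range, and the vehicle arrays and tofacitinib mouse 9 were below it. Bub1 fell with vehicle (-1.64 ± 0.46, adjusted p = 0.00881), while its differences of 0.81 ± 0.46 with ruxolitinib and -0.08 ± 0.39 with tofacitinib did not pass. The checkpoint genes Ttk and Mad2l1 fell with vehicle (-2.40 and -1.82) and tofacitinib (-1.30 and -0.70).

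The cyclins and mitotic kinases tested all fell with vehicle. Ccnb2 (gene ID 12442), a B-type cyclin that activates Cdk1, had lowest, median and highest values of 7.30, 7.83 and 8.43 at day 0. At day 5 it had 4.21 and 4.83 with vehicle, 6.99 and 5.15 with ruxolitinib and 7.11, 6.14 and 4.69 with tofacitinib. No day-5 array reached the day-0 range, and ruxolitinib mouse 6 and tofacitinib mouse 9 were near the vehicle values. It fell in every arm, by 3.35 ± 0.50, 1.80 ± 0.50 and 1.92 ± 0.42 with vehicle, ruxolitinib and tofacitinib (adjusted p = 0.00011, 0.0123 and 0.002), which is 10.2-fold, 3.48-fold and 3.79-fold lower. The ruxolitinib call was lost without mouse 6 (adjusted p = 0.316) and with the fixed block (adjusted p = 0.141). Ccna2 (cyclin A2) and Cdk1 itself fell with vehicle (-2.12 and -2.33) and tofacitinib (-1.05 and -1.30), and had -0.29 and -0.34 with ruxolitinib, which did not pass. The Aurora kinase of the chromosomal passenger complex, Aurkb, and its partner Birc5 (survivin) fell with vehicle (-2.91 and -1.89) and tofacitinib (-1.68 and -1.02). Aurka, the Aurora kinase of spindle poles, had the smallest vehicle difference of the mitotic genes (-1.15 ± 0.25, adjusted p = 0.00177). Plk1 (Polo-like kinase 1) had -1.81 with vehicle and -0.97 with tofacitinib, but it exceeded log2 4 at day 0 alone. Its fall is thus not independent of the filter. The kinase Melk passed with vehicle alone (-1.57).

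Spindle proteins and motors included Nusap1, which had the largest vehicle difference of the class. Nusap1 (gene ID 108907), a microtubule-bundling protein, ranged over 8.43, 9.12 and 9.95 at day 0. It had 4.86 and 5.52 with vehicle, 8.55 and 6.92 with ruxolitinib and 7.90, 7.48 and 5.50 with tofacitinib. Ruxolitinib mouse 4 was again inside the day-0 range, and tofacitinib mouse 9 was level with vehicle mouse 3. Nusap1 fell by 3.83 ± 0.52 with vehicle (14.2-fold lower, adjusted p = 5.52e-05) and by 2.09 ± 0.44 with tofacitinib (adjusted p = 0.00149). The ruxolitinib difference of -1.28 ± 0.52 did not pass (adjusted p = 0.0688). Kif11 (gene ID 16551), the kinesin that pushes spindle poles apart, ranged over 5.83, 6.65 and 7.20 at day 0 and had 3.93 and 3.89 with vehicle, 6.51 and 5.05 with ruxolitinib and 6.18, 5.57 and 4.99 with tofacitinib. Ruxolitinib mouse 4 and tofacitinib mouse 7 lay inside the day-0 range and both vehicle arrays lowest. Its differences were -2.66 ± 0.36, -0.77 ± 0.36 and -1.03 ± 0.30 (adjusted p = 4.93e-05, 0.105 and 0.0115). The motors Kif20a and Kif23 fell with vehicle (-2.61 and -1.47), Kif20a also with ruxolitinib (-1.32) and tofacitinib (-1.50). Tpx2, a spindle assembly factor, fell with vehicle (-2.63) and tofacitinib (-1.64). The kinetochore proteins Cenpf and Cenpe fell with vehicle (-3.19 and -2.29), and Cenpf with tofacitinib (-1.47).

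The cytokinesis genes Prc1 and Anln fell in all 3 arms. Prc1 (gene ID 233406), which crosslinks the central spindle, ranged over 9.27, 9.88 and 10.10 at day 0 and had 7.40 and 7.23 with vehicle, 9.05 and 8.22 with ruxolitinib and 8.92, 7.80 and 7.18 with tofacitinib. Every day-5 array was below the day-0 range, with tofacitinib mouse 9 lowest. Its differences were -2.43 ± 0.33, -1.10 ± 0.33 and -1.79 ± 0.28 (adjusted p = 5.96e-05, 0.0199 and 0.000181). Anln (gene ID 68743), the contractile ring scaffold anillin, ranged over 8.34, 9.06 and 9.41 at day 0 and had 6.97 and 6.81 with vehicle, 8.09 and 7.60 with ruxolitinib and 7.59, 7.11 and 6.53 with tofacitinib. Again no day-5 array reached the day-0 range. Anln fell in every arm, by 2.10 ± 0.28, 1.14 ± 0.28 and 1.96 ± 0.24 (adjusted p = 4.58e-05, 0.00585 and 1.86e-05), so that its tofacitinib and vehicle differences were close. Without ruxolitinib mouse 6 the ruxolitinib calls of Prc1 and Anln were lost (adjusted p = 0.287 and 0.113), and with the fixed block likewise (0.201 and 0.0658). Ect2, which acts in cytokinesis, fell with vehicle (-1.90) and tofacitinib (-1.20).

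Cyclin-destruction genes and general proliferation genes completed the class. Cdc20, an activator of the anaphase-promoting complex, ranged over 8.45, 8.79 and 9.23 at day 0 and had 7.43 and 7.07 with vehicle, 8.69 and 7.39 with ruxolitinib and 8.54, 7.94 and 7.83 with tofacitinib. Ruxolitinib mouse 4 and tofacitinib mouse 7 lay in the day-0 range. It passed in every arm (-1.55 ± 0.28, -0.78 ± 0.28 and -0.74 ± 0.24), with ruxolitinib at an adjusted p of 0.0417 that was lost without mouse 6 (0.816). Ube2c, the ubiquitin-conjugating enzyme of that complex, fell with vehicle (-3.17 ± 0.48, adjusted p = 0.000122) and tofacitinib (-2.04 ± 0.40, adjusted p = 0.00102). Mki67, the source of the Ki-67 antigen, ranged over 10.52, 10.97 and 11.75 at day 0 and had 8.82 and 9.39 with vehicle, 11.14 and 10.42 with ruxolitinib and 10.82, 10.34 and 9.99 with tofacitinib. Both vehicle arrays were below all others. Mki67 fell with vehicle (-1.90 ± 0.27) and tofacitinib (-0.64 ± 0.23), and its ruxolitinib difference of -0.25 ± 0.27 did not pass. Top2a (topoisomerase II alpha) and Foxm1 (a transcription factor of G2 genes) fell with vehicle (-1.65 and -1.76) and tofacitinib (-0.77 and -0.98). Ccna2, Chek1 and Top2a act in more than 1 phase and were kept in the class given in the list.

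**Figure D4:**
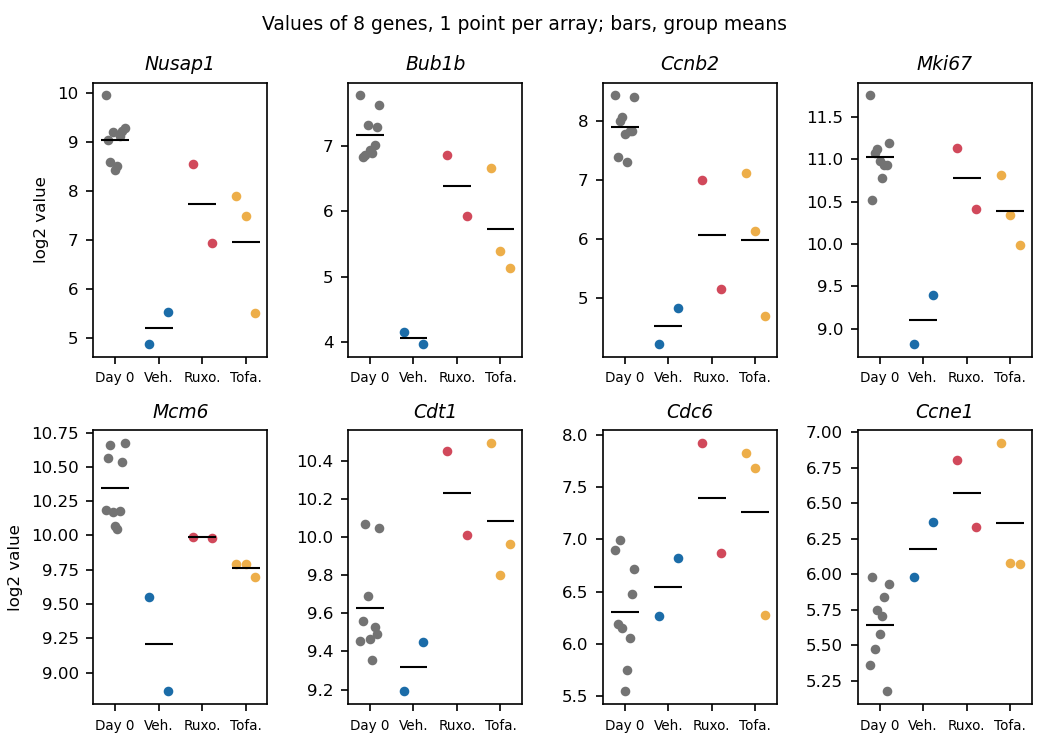
Log2 values of 4 mitotic genes (upper row) and 4 replication genes (lower row), with 1 point per array, grouped as day 0, vehicle, ruxolitinib and tofacitinib, and bars at group means. Vehicle arrays are lowest for Bub1b and Mki67, tofacitinib mouse 9 lies among them for Nusap1 and Ccnb2, and for Ccne1 the inhibitor and vehicle arrays lie above all 9 day-0 arrays.

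Replication genes were split in direction. With vehicle, 6 of 16 passed as lower (Mcm6, Mcm7, Mcm3, Mcm2, Rrm1 and Cdc45) and 0 as higher (1 at an unadjusted p under 0.05), with a median of -0.53, and the share was not far from the background of 28.9%. With ruxolitinib, 1 passed as lower (Mcm7) and 3 as higher (Ccne1, Cdt1 and Cdc6), with a median of 0.19, against backgrounds of 21.4% and 12.5%. With tofacitinib, 4 passed as lower (Mcm6, Mcm7, Mcm3 and Gins1) and 4 as higher (Ccne1, Ccne2, Cdt1 and Cdc6), with a median of -0.15, against 27.4% and 22.7%. Once the mouse was a fixed block, 1 passed as lower with vehicle (Mcm6), none with ruxolitinib in either direction, and 2 as lower (Mcm6 and Gins1) and none as higher with tofacitinib, where the shares of all genes that passed as higher were 4.02% with ruxolitinib and 18.8% with tofacitinib.

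Single arrays moved these counts as well. When each array was left out in turn, the share of all genes that passed as lower ran from 18.8% to 30.3% with vehicle, 11.3% to 23.3% with ruxolitinib and 19.5% to 30.6% with tofacitinib, and as higher from 9.94% to 23.7%, 5.27% to 13.7% and 13.4% to 24.8%. With vehicle, 2 replication genes passed as lower without mouse 2 and 2 without mouse 3, and 1 passed as higher without tofacitinib mouse 7. With ruxolitinib, the 3 higher calls became 0 without mouse 4, 1 without mouse 6, 1 without the day-0 array of mouse 8 and 5 without tofacitinib mouse 7. Its single lower call became 2 without ruxolitinib mouse 4 or tofacitinib mouse 7 and 0 without ruxolitinib mouse 6. With tofacitinib, the 4 higher calls became 0 without mouse 7 and 2 without mouse 8 or the day-0 array of mouse 2, 4, 5 or 7. The 4 lower calls became 7 without tofacitinib mouse 7, 2 without tofacitinib mouse 8 or the day-0 array of mouse 9, and 0 without tofacitinib mouse 9.

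Helicase genes gave most of the lower calls. Mcm6 (gene ID 17219) had lowest, median and highest values of 10.05, 10.19 and 10.68 at day 0 and 9.55 and 8.86 with vehicle, 9.99 and 9.98 with ruxolitinib and 9.79, 9.79 and 9.70 with tofacitinib. All 7 day-5 arrays were below the day-0 range, with vehicle lowest and the inhibitor arrays close to its lower end. Mcm6 fell with vehicle by 1.16 ± 0.20 (2.24-fold lower, adjusted p = 0.000298) and with tofacitinib by 0.59 ± 0.17 (adjusted p = 0.00897, and 0.0516 without mouse 9), and had -0.33 ± 0.20 with ruxolitinib (adjusted p = 0.196). Mcm7 (gene ID 17220) ranged over 9.81, 10.29 and 10.84 at day 0 and had 9.03 and 9.20 with vehicle, 9.64 and 9.14 with ruxolitinib and 10.38, 9.19 and 9.14 with tofacitinib. Tofacitinib mouse 7 was inside the day-0 range and the other 6 day-5 arrays below it. Its differences were -1.20 ± 0.30, -0.92 ± 0.30 and -0.73 ± 0.26 (adjusted p = 0.00489, 0.0303 and 0.0285), and all 3 calls were lost once the mouse was a fixed block (0.0797, 0.237 and 0.191). Mcm3 (gene ID 17215) ranged over 8.46, 8.79 and 9.41 at day 0 and had 8.21 and 8.16 with vehicle, 9.11 and 8.90 with ruxolitinib and 8.75, 8.31 and 8.03 with tofacitinib. Vehicle and tofacitinib mice 8 and 9 were below the day-0 range, while both ruxolitinib arrays were inside it. Mcm3 fell with vehicle (-0.70 ± 0.22, adjusted p = 0.0177) and tofacitinib (-0.51 ± 0.19, adjusted p = 0.0368), both lost with the fixed block (0.0521 and 0.0714). Mcm2 fell with vehicle (-0.84), and Mcm4 and Mcm5 had -0.18 and -0.77, which did not pass.

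Licensing factors and E-type cyclins gave all the higher calls. Cdc6 (gene ID 23834), which recruits Cdt1 and the helicase to origins, ranged over 5.55, 6.19 and 7.0 at day 0 and had 6.27 and 6.83 with vehicle, 7.92 and 6.87 with ruxolitinib and 7.82, 7.69 and 6.28 with tofacitinib. Ruxolitinib mouse 4 and tofacitinib mice 7 and 8 were above the day-0 range, and the other day-5 arrays inside it. Cdc6 rose by 1.12 ± 0.42 with ruxolitinib (2.18-fold, adjusted p = 0.0493) and 0.94 ± 0.35 with tofacitinib (1.92-fold, adjusted p = 0.0375), with a vehicle difference of 0.21 ± 0.42. Cdt1 (gene ID 67177), the loader of the helicase, ranged over 9.36, 9.53 and 10.07 at day 0 and had 9.19 and 9.45 with vehicle, 10.45 and 10.01 with ruxolitinib and 10.50, 9.80 and 9.96 with tofacitinib. Among day-5 arrays, ruxolitinib mouse 4 and tofacitinib mouse 7 exceeded the day-0 range. Cdt1 rose by 0.61 ± 0.21 with ruxolitinib (adjusted p = 0.0343) and 0.45 ± 0.18 with tofacitinib (adjusted p = 0.0449), with -0.33 ± 0.21 with vehicle. Its second probe set gave -1.11, -0.05 and -0.49 with vehicle, ruxolitinib and tofacitinib, so the rise rests on the brighter probe set.

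Ccne1 (gene ID 12447), cyclin E1, ranged over 5.17, 5.71 and 5.98 at day 0 and had 5.98 and 6.37 with vehicle, 6.80 and 6.33 with ruxolitinib and 6.93, 6.08 and 6.07 with tofacitinib. All 7 day-5 arrays lay above the day-0 range, with vehicle mouse 2 at its upper edge. Ccne1 rose by 0.92 ± 0.24 with ruxolitinib (1.89-fold, adjusted p = 0.00825) and 0.71 ± 0.20 with tofacitinib (1.64-fold, adjusted p = 0.00907), and had 0.52 ± 0.24 with vehicle (adjusted p = 0.0774). Its second probe set gave 0.93 and 0.82 with the inhibitors. Ccne2 (gene ID 12448), cyclin E2, ranged over 7.06, 7.36 and 8.03 at day 0 and had 8.12 and 7.63 with vehicle, 8.05 and 8.02 with ruxolitinib and 8.23, 8.24 and 8.0 with tofacitinib. Vehicle mouse 2, ruxolitinib mouse 4 and tofacitinib mice 7 and 8 were above the day-0 range. Ccne2 rose with tofacitinib (0.63 ± 0.19, adjusted p = 0.014), with 0.56 ± 0.23 for ruxolitinib (adjusted p = 0.0694) and 0.35 ± 0.23 for vehicle (adjusted p = 0.207). All higher calls of Cdc6, Cdt1, Ccne1 and Ccne2 were lost with the fixed block, at adjusted p from 0.0596 to 0.171.

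Fork, nucleotide and checkpoint genes made up the rest of the class. Cdc45 and Rrm1, a subunit of ribonucleotide reductase, fell with vehicle (-0.56 ± 0.22 and -0.50 ± 0.15, adjusted p = 0.0419 and 0.0118). A second Rrm1 probe set gave 0.14 with vehicle, the opposite sign, so the fall of Rrm1 rests on the brighter probe set. Gins1, of the GINS complex, fell with tofacitinib (-0.83 ± 0.24, adjusted p = 0.0095). Rrm2, the other subunit, had 0.06, 0.44 and 0.17 with vehicle, ruxolitinib and tofacitinib, and Pcna had -0.14, 0.12 and -0.01, and neither passed in any arm. Chek1, the replication checkpoint kinase, had -0.66 ± 0.45, 0.64 ± 0.45 and 0.45 ± 0.38 and did not pass.

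Between day-5 groups, the group means of the mitotic genes were higher with both inhibitors than with vehicle, but 1 gene passed adjustment. Single arrays differed from this. For Anln and Prc1, tofacitinib mouse 9 (6.53 and 7.18) was below both vehicle arrays (lowest 6.81 and 7.23). For ruxolitinib against vehicle all 27 mitotic differences were positive, from 0.77 to 2.55 with a median of 1.62, and 26 had an unadjusted p under 0.05. Of all 12087 genes, 1180 were higher at that threshold. Bub1b alone passed, at 2.30 ± 0.45 (95% interval 1.35 to 3.26, 4.93-fold, limma with Benjamini-Hochberg, adjusted p = 0.0358), where 0.405% of all genes passed as higher and 0.116% as lower. Mki67 followed at 1.65 ± 0.35 (95% interval 0.91 to 2.40, adjusted p = 0.0509), and Bub1 and Kif11 at 2.45 and 1.89 (adjusted p = 0.0771 for each). All 16 replication differences were also positive, with a median of 0.43 and a largest value of 1.30 (Chek1). None of them passed, 5 had an unadjusted p under 0.05, and the smallest adjusted p was 0.112 (Cdt1).

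The Bub1b call was not stable to the fit. Its adjusted p was 0.264 with the mouse as a fixed replicate block and 0.102 when the fit held the compared groups alone. Without vehicle mouse 2 or 3 it was 0.166 or 0.123, without ruxolitinib mouse 4 or 6 it was 0.197 or 0.0589, and without the day-0 array of mouse 5, 6 or 7 it was 0.0519, 0.0542 or 0.0535. In each of these cases no mitotic gene passed. In contrast, 10 mitotic genes passed as higher without tofacitinib mouse 7, 10 without tofacitinib mouse 9 and 2 without the day-0 array of mouse 1, while the share of all genes that passed as higher rose from 0.405% to 1.8%, 1.46% and 0.712%. Where the Bub1b call was lost, fewer of all genes passed as well. In either direction the share was 0.0% with the fixed block and 0.0248% with the compared groups alone, against 0.521% in the main fit. Without the day-0 array of mouse 5, 6 or 7 it was 0.323%, 0.447% or 0.256%. The loss is thus not particular to Bub1b. The Bub1b difference itself ran from 1.86 to 2.72 over all the settings tried. Of the replication genes, 1 passed without tofacitinib mouse 7.

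**Figure D5:**
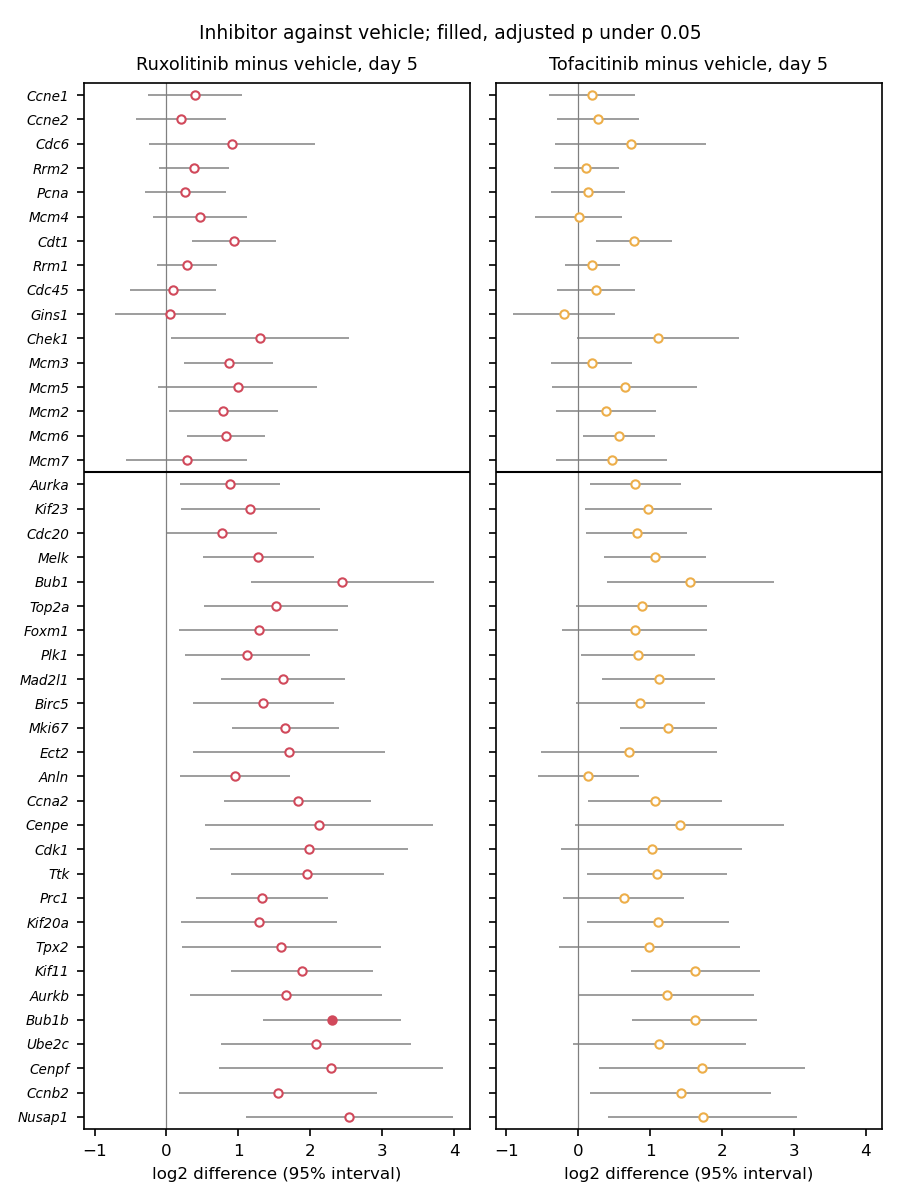
Difference between each inhibitor and vehicle at day 5 (log2, bars 95% intervals) for each tested gene, with replication genes above the line and a filled point for adjusted p under 0.05. All points of ruxolitinib lie right of 0, and Bub1b with ruxolitinib is the filled point.

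For tofacitinib against vehicle the 27 mitotic differences ran from 0.14 to 1.73, with a median of 1.07, and 17 had an unadjusted p under 0.05. Of all 12087 genes, 765 were higher at that threshold. None passed by limma with Benjamini-Hochberg adjustment (adjusted p from 0.146 to 0.943), where 0.165% of all genes passed as higher and 0% as lower. Without tofacitinib mouse 9, 7 mitotic genes passed as higher (0.976% of all genes), and without mouse 7 none did (0.0496%). Bub1b had 1.62 ± 0.41 (95% interval 0.75 to 2.49, adjusted p = 0.146), and Anln 0.14 ± 0.33 (-0.56 to 0.85). The replication genes had a median of 0.27, and none passed (adjusted p from 0.278 to 0.995), with 2 at an unadjusted p under 0.05. Both inhibitors were compared with the same 2 vehicle arrays.

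Tofacitinib and ruxolitinib were set side by side in 1 comparison, for which the labels give no doses, so that matched doses cannot be assumed. No member passed (adjusted p from 0.799 to 0.990), with 1 mitotic and 1 replication gene lower at an unadjusted p under 0.05, and 0.0248% of all genes passed as lower and 0% as higher. The mitotic median was -0.57, from -1.0 to 0.05, and the replication median was -0.20. The interval for Bub1b ran from -1.55 to 0.19 and that for Ccnb2 from -1.38 to 1.14, so differences of more than 1 log2 unit were not excluded by these arrays.

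Genes with several probe sets allowed a check that the selection of probe sets did not use. For 13 mitotic genes with 14 further probe sets, the sign of the difference from day 0 was shared in 14 with vehicle, 12 with ruxolitinib and 14 with tofacitinib. For 11 replication genes with 18 further probe sets it was shared in 16, 12 and 15. Some sizes differed by more than 1 log2 unit. A second Nusap1 probe set with a mean level of 3.61 gave -0.29, -0.39 and -0.32 with vehicle, ruxolitinib and tofacitinib, and a second Kif11 probe set gave -0.91, 0.55 and -0.32. Other Cdc20 probe sets reached -2.80, -1.82 and -1.90. A second Mcm6 probe set gave -1.96, -1.14 and -1.18, each larger than the value used.

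Mcm5 also depended on the probe set. The probe set used ranged over 7.84, 8.26 and 9.09 at day 0 and had 8.01 and 7.30 with vehicle, 9.07 and 8.09 with ruxolitinib and 9.06, 8.22 and 7.51 with tofacitinib. Vehicle mouse 3 and tofacitinib mouse 9 were below the day-0 range, and the differences of -0.77 ± 0.40, 0.22 ± 0.40 and -0.13 ± 0.34 did not pass. The other Mcm5 probe set gave -1.95 with vehicle (adjusted p = 0.0023 in the fit over all kept probe sets), with -0.45 and -1.14 with ruxolitinib and tofacitinib. The values given for replication genes are those of the brightest probe set of each gene. Of the 43 probe sets used, 7 carry the suffix of probe sets with shared sequence (_x_at) and 6 that of several transcripts (_s_at).

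Other genes of these pathways, from lists of textbook members, were counted in the same way. These lists too were chosen with earlier results of these data known. Of 47 further mitosis genes tested, 40 passed as lower with vehicle (median -1.66), 4 with ruxolitinib (median -0.12) and 21 with tofacitinib (median -0.70). The shares of all genes that passed as lower were 28.9%, 21.4% and 27.4%. Among the 47 counted, Dlgap5 exceeded log2 4 at day 0 alone, so a fall of this gene would not be independent of the filter. None passed as higher by limma, and 0, 2 and 0 were higher at an unadjusted p under 0.05. Kifc1, a spindle motor, had differences of -2.79, -1.19 and -1.14 with vehicle, ruxolitinib and tofacitinib. The phosphatases Cdc25b (-2.55, -1.57 and -2.08) and Cdc25c (-3.22, -1.16 and -1.60) activate Cdk1. Ckap2l, a spindle protein, had -2.58, -0.86 and -1.15. Against vehicle, Cenph (a kinetochore protein) and Pbk (a mitotic kinase) were higher with ruxolitinib, by 2.01 ± 0.33 and 2.75 ± 0.54 (adjusted p = 0.0180 and 0.0358). For Pbk the vehicle arrays had 5.04 and 5.10, the ruxolitinib arrays 7.34 and 8.31, and day 0 a range of 7.36 to 8.15, so the ruxolitinib arrays lay at either edge of the day-0 range.

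Of 40 further replication genes tested, 23 passed as lower with vehicle (median -0.69), 5 as lower and 3 as higher with ruxolitinib (median -0.22), and 15 as lower and 2 as higher with tofacitinib (median -0.35). The background was 28.9% lower with vehicle, 21.4% lower and 12.5% higher with ruxolitinib, and 27.4% lower and 22.7% higher with tofacitinib. Uhrf1, which maintains DNA methylation at forks, had -1.92, -0.30 and -1.06. The clamp loader was represented by Rfc3 (-1.43, -1.04 and -1.08) and Rfc5 (-1.54, -0.95 and -1.26), and the primase by Prim1 (-1.28, -0.62 and -1.01). The vehicle median of these 40 genes lay near that of the 16 replication members, and that of the further mitosis genes well below both.

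Among 18 genes of cycle entry, 7 passed as lower and 2 as higher with vehicle, 4 and 3 with ruxolitinib, and 4 and 2 with tofacitinib. These counts, and those of the cycle inhibitors, stand against the same shares of all genes (28.9% lower and 22.2% higher with vehicle, 21.4% and 12.5% with ruxolitinib, 27.4% and 22.7% with tofacitinib). The G1 genes among those lower were Cdk6 (-1.75, -1.65 and -1.50), Ccnd2 (-1.47, -1.01 and -1.12), Ccnd1 (-1.34, -0.90 and -1.18) and Cdk4 (-1.22, -0.50 and -0.67), the kinases and cyclins that begin Rb phosphorylation. Myc did not pass in any arm (0.18, 0.06 and 0.16). Over the 18 genes the median difference was -0.41, 0.05 and -0.14, and the highest was 0.88, 2.79 and 1.82. Of 19 cycle inhibitors, 4 passed as lower and 5 as higher with vehicle, 3 and 3 with ruxolitinib, and 3 and 5 with tofacitinib. Cdkn1c, a Cdk inhibitor, had 2.30, 1.21 and 1.62. It exceeded log2 4 at day 5 alone, so its rise is not independent of the filter, and it is among the 19 counted. Cdkn2b, an inhibitor of Cdk4 and Cdk6, had -1.53, -2.54 and -1.23. Gas1 had -1.12, -0.90 and -0.87, Rbl1, a relative of Rb, -1.43, -0.54 and -1.14, and Cdkn1a, the p53 target, did not pass (-0.09, -0.10 and 0.01).

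Markers of dividing compartments moved in different ways. All 10 basal keratinocyte genes passed as lower in each arm, where 28.9%, 21.4% and 27.4% of all genes did with vehicle, ruxolitinib and tofacitinib. Their mean relative to day 0 was -1.28 and -1.24 with vehicle, -1.23 and -0.88 with ruxolitinib, and -0.90, -1.17 and -1.17 with tofacitinib. Ruxolitinib mouse 4 and tofacitinib mouse 7, with the highest and next highest mitotic means at day 5, had basal means of -1.23 and -0.90. Whether the mitotic mean follows the basal mean was not tested. Of 11 hair matrix genes, 6 were tested (Msx2, Hoxc13, Dlx3, Lef1, Shh and Krt25), and Foxn1, Krt35, Krt85, Krt31 and Krt71 were not. Shh and Krt25 exceeded log2 4 at day 5 alone, with inhibitor, so no mean or count over the list is given.

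Hoxc13, a homeobox factor of the hair-forming cells, had 7.20 to 8.11 at day 0, at most 6.85 with vehicle, 8.27 and 8.79 with ruxolitinib, and 7.63 to 8.37 with tofacitinib. Both vehicle arrays were below the day-0 range and both ruxolitinib arrays above it. It fell with vehicle (-0.96 ± 0.22, adjusted p = 0.00277) and rose with ruxolitinib (0.89 ± 0.22, adjusted p = 0.00703), and it passed as higher for ruxolitinib against vehicle (1.85 ± 0.29, adjusted p = 0.0168). Dlx3, a related factor, fell with vehicle (-1.75 ± 0.33, adjusted p = 0.000687), with -0.28 ± 0.33 and -0.39 ± 0.28 for the inhibitors, and Lef1 did not pass (-0.56, 0.30 and 0.29). Shh, which signals in the growing follicle, had 2.43 to 3.76 at day 0, 2.27 and 2.73 with vehicle, 5.30 and 7.45 with ruxolitinib, and 3.90 to 6.95 with tofacitinib. Its vehicle values lie about the highest control value of 2.43, so no size of difference is given.

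Differentiated keratinocyte genes (Krt1, Krt10, Lor, Flg, Ivl, Tgm1, Dsg1a and Dsc1) also had a lower mean with vehicle than with the inhibitors on these arrays. That mean relative to day 0 was -0.67 and -1.20 with vehicle, -0.24 and 0.04 with ruxolitinib, and -0.10, 0.14 and -0.24 with tofacitinib, against -0.49 to 0.37 at day 0. Of the 8, 4 passed as lower with vehicle, 1 with ruxolitinib and 3 with tofacitinib, against 28.9%, 21.4% and 27.4% of all genes. Flg (filaggrin) passed as higher with both inhibitors (1.40 ± 0.39 and 1.49 ± 0.33), where 12.5% and 22.7% of all genes did. None of the 8 passed between an inhibitor and vehicle by limma, where 4 were higher at an unadjusted p under 0.05 with ruxolitinib and 5 with tofacitinib. Of all 12087 genes, 1180 and 765 were. Among 8 genes of activated keratinocytes, Krt16 (3.97, 2.88 and 3.26) and Sprr1b (4.02, 3.72 and 3.68) rose and Krt17 (-1.13, -1.06 and -0.99) fell in each arm. Sprr1b and Krt17 had the highest and lowest differences of that list in each arm, so the genes named do not stand for all 8. Krt6b, also in the list, exceeded log2 4 at day 5 alone, so no count over it is given.

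Markers of other cell types also differed at day 5, where 22.2%, 12.5% and 22.7% of all genes passed as higher with vehicle, ruxolitinib and tofacitinib. Of 10 fibroblast genes, 5 passed as higher with vehicle, 6 with ruxolitinib and 6 with tofacitinib, and their mean level was 6.44 to 8.60 at day 0 and 9.15 to 9.42, 9.59 to 9.76 and 9.40 to 9.90 in the 3 arms. Of 12 skeletal muscle genes, 6, 1 and 8 passed as higher, with a mean level of 12.74 to 13.34 at day 0 and 13.41 to 13.59 at day 5. Of 6 macrophage genes, 3, 2 and 2 passed as higher. Of 9 endothelial genes, Pecam1, Cdh5, Kdr and Emcn exceeded log2 4 at day 5 alone, so no count is given. Vwf (von Willebrand factor) had 3.32 to 4.90 at day 0 and 5.72 to 7.20 at day 5. Of 5 T cell genes, Cd3d, Cd3g and Cd2 exceeded log2 4 at day 0 alone, and Cd3e had 8.12 to 9.37 at day 0 and 4.75 to 6.58 at day 5. The part of any of these cell markers in the mitotic and replication differences was not tested.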

How the data were processed

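Whole-skin RNA was measured on Affymetrix mouse arrays, 16 in all. GCRMA was used by the authors to make the deposited log2 values, 1 per probe set, per the submitters' processing notes. GCRMA corrects background, normalizes across arrays and summarizes probes, so low values are compressed toward the background. Its version is not given in the sources used here, nor whether arrays were normalized in 1 run. Per the labels' protocols, cDNA was amplified before labelling. The number of arrays limits the precision.

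Of 45101 probe sets, 34958 had a single gene symbol in the platform table, 932 several, and 9211 were not listed; 34754 were matched by gene ID to the mouse reference table, with 0 symbols changed. Groups came from the labels. The test was limma's (version 3.58.1, R 4.3.3) on log2 values with eBayes and a mean per group over all 16 arrays. The mouse entered as random block through duplicateCorrelation, at a consensus of 0.0982. P-values were adjusted by Benjamini-Hochberg over the 12087 genes of each comparison, and "passed" means an adjusted p under 0.05. Errors are standard errors, and a fold is the log2 difference turned back to a linear ratio. The labels place both biopsies of a number on the same mouse, which is the pairing. As a check, deviations of a mouse's arrays from their group means correlated above 0.1 in 2 of 7 pairs (range -0.183 to 0.178). Replicates are separate mice.

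Values in every array are given for the 5 replication and 6 mitotic genes with the smallest F-test p over the day-5 differences from day 0, for those that passed in the less common direction or between day-5 groups, and for up to 4 whose probe sets lay over 1 log2 unit apart; Bub1 and Mki67 were added after their values were seen. From each other pathway list the 4 genes with the smallest p in the vehicle comparison are named, plus Cdkn1a, Ccnd1 and Myc. Pbk and Cenph were added because they passed against vehicle. Marker genes given singly were chosen after their values were seen. The members and lists were chosen with earlier results of these data known. The fit was tested on simulated data. Alternatives covered the block, the groups fitted, the filter, the probe set rule, scaling, a minimum difference and leaving out each array.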

Additional observations from a re-analysis of the deposited data

Results flagged for a closer look

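Aurka, the Aurora kinase of spindle poles, had a value of 6.87 in the day-0 array of mouse 9, which stood apart from the other day-0 arrays by more than Dixon's critical value for 9 samples. It was the single such value among 45 gene and group combinations with enough arrays, fewer than chance alone is set to mark.

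Bub1b differed between ruxolitinib and vehicle at day 5 by 2.30 log2 units in the test of that difference. The remaining values mark genes for which every mouse of an arm moved one way against its own day-0 biopsy and every mouse of another arm the opposite way. The contrast between arms in this paired form was not tested. The share of all genes that meet this rule is not given here, so no excess among members can be read from these genes. With ruxolitinib (2 mice), the mean paired difference was 0.71 for Cdt1, 0.37 for Mcm3, 0.51 for Mcm4, 0.79 for Chek1, 1.02 for Bub1 and 0.14 for Ect2, where both vehicle mice had negative values, with means of -0.49, -0.94, -0.38, -1.23, -1.46 and -1.85. For Mcm3 and Ect2 the 3 tofacitinib mice were also opposite to ruxolitinib, with means of -0.65 and -1.31. In the fit of ruxolitinib against day 0, other probe sets gave -0.05 for Cdt1 and -0.20 for Mcm4. For Mcm3 they gave -0.51 to 0.10, with 1 of 4 sharing the sign of the probe set used, and for Chek1 0.40 and 0.49. The ruxolitinib values of Cdt1, Mcm3 and Mcm4 thus depend on the probe set.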

How the results depend on the processing

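The labels pair the arrays by mouse. With the mouse as a fixed replicate block, 40 of 73 calls of members were kept and 33 lost. Over all genes and both directions, 30.6%, 11.0% and 39.4% passed with vehicle, ruxolitinib and tofacitinib. The main fit had 51.1%, 34.0% and 50.1%. Vehicle replication calls went to 1 lower. Ruxolitinib calls went to 0 replication lower, 0 replication higher and 1 mitotic lower. Tofacitinib calls went to 2 replication lower, 0 replication higher and 14 mitotic lower. Ruxolitinib against vehicle went to 0 mitotic higher, where 0.0% of all genes passed in either direction, against 0.521% in the main fit. Without any block, 70 calls were kept.

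With the compared groups alone in the fit, the vehicle replication genes had 1 higher call, and ruxolitinib had 1 replication higher and 8 mitotic lower, with 0 mitotic higher against vehicle. In these comparisons 54.6%, 35.1% and 0.0248% of all genes passed in either direction, where the main fit had 51.1%, 34.0% and 0.521%. Shares of all genes below are likewise for both directions. Centring each array on its median gave 1 replication gene higher with vehicle, 5 with ruxolitinib, and 2 mitotic genes higher for ruxolitinib against vehicle. The shares of all genes were 51.9%, 34.7% and 0.529%. Quantile normalization gave 1 replication gene higher with vehicle (50.7% of all genes). Averaging probe sets gave 2 replication genes lower with ruxolitinib and 2 mitotic genes higher against vehicle (36.7% and 0.91% of all genes). It turned the Cdt1 tofacitinib difference to -0.019 (adjusted p = 0.956 by limma). Requiring a difference of at least 1 left 2 replication genes lower with vehicle, 0 lower and 1 higher with ruxolitinib, and 0 lower and 0 higher with tofacitinib. The shares of all genes also fell, to 25.4%, 15.5% and 19.7%. As an alternative chosen after seeing the data, leaving out _x_at and _s_at probe sets gave 2 replication genes lower with ruxolitinib and 2 mitotic genes higher against vehicle (34.6% and 0.58% of all genes). With the median over members in place of the mean, vehicle replication was -0.46 and vehicle mitotic -2.17.

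Leaving out each array in turn, vehicle had 22 to 27 mitotic lower, 2 to 8 replication lower and 0 to 1 higher. Ruxolitinib had 0 to 10 mitotic lower, 0 to 2 replication lower and 0 to 5 higher. Tofacitinib had 7 to 26 mitotic lower, 0 to 7 replication lower and 0 to 4 higher. Against vehicle, ruxolitinib had 0 to 10 mitotic and 0 to 1 replication genes higher, and tofacitinib 0 to 7 mitotic. The cause of these shifts was not tested.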
